A study of Homo sapiens with 120 samples.

Results

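Collagen genes were taken as every gene in the deposited table whose symbol consists of COL, a type number, the letter A and a chain number. The rule found 44 of 62703 genes. By structure they fell into 11 fibrillar chains, 6 chains of the type IV basement membrane network, 10 fibril-associated (FACIT) chains, 7 chains of beaded filaments and related types, 4 transmembrane chains, 3 chains of hexagonal networks, 2 multiplexins and the single chain of anchoring fibrils. All 44 passed the filter on low counts in both experimental arms, and 24 of them reached at least 1 CPM (read counts scaled to a common library total) in both libraries of each of the 48 differentiation groups. COL10A1, a cartilage growth plate chain, stayed under 1 CPM in all 120 libraries.

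Collagens are triple helices of α chains, made in the endoplasmic reticulum, where prolines and lysines are hydroxylated and the chaperone encoded by SERPINH1 accompanies the helix to the Golgi. Fibrillar types I, III and V form the fibrils of mesenchymal connective tissue and types II and XI those of cartilage and notochord, while FACIT chains decorate the fibril surface. Type IV chains form the sheet of the basement membrane on which epithelia such as the epiblast and early endoderm rest, with the multiplexin XVIII embedded in it, and type VI chains form beaded microfilaments next to it. In the embryo, mesoderm that leaves the primitive streak is the main source of fibrillar collagen, and endoderm is a strong source of basement membrane.

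The RNA came from H1, an established line of human embryonic stem cells, in which the long non-coding RNA lncPRESS1 was altered. The differentiation arm held a knockout (KO), a ΔATG line, which by its name lacks a start codon of lncPRESS1, and unedited cells (WT), sampled as stem cells on day 0 and then daily for 5 days under 3 protocols. These were mesoderm medium with BMP4 on Matrigel, a SMAD inhibition kit for neuroectoderm (SMADi) on Geltrex and a definitive endoderm kit (Endo) on Matrigel. The overexpression arm held cells labelled lncPRESS1, lncPRESS1DATG, lncSIRP and vector, collected at stages named early, middle and late. Each of the 48 and 12 groups had 2 libraries, called a and b, with 38298603 to 71219834 counts per library in the first arm and 40113893 to 65466595 in the second. The labels give neither the number of clones behind each edit nor the days of the stages nor the nature of lncSIRP, and an edit and its clone cannot be told apart. Nothing says that the 2 libraries of a group came from separate cultures, and p-values then measure only the spread between these libraries, which may be technical.

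The RNA of the targeted gene, LNCPRESS1, had 13.2 and 5.6 CPM in KO, 53.1 and 35.2 CPM in ΔATG and 21.4 and 40.6 CPM in WT stem cells. Over days 1 to 5 of BMP4 it was lower in KO than in WT by a log2 fold change of -1.27 ± 0.11 (SE, adjusted p = 1.14e-14 with edgeR), and ΔATG had -0.07 (adjusted p = 0.719). In the overexpression arm the early libraries labelled lncPRESS1 held 32.3 and 53.8 CPM and those labelled lncSIRP 185 and 133 CPM, against 29 and 30.2 CPM in vector. Early LNCPRESS1 RNA was thus higher with the lncSIRP label than with its own. As the nature of lncSIRP is not given, these values cannot decide whether the labels are right. The middle libraries labelled lncPRESS1 held 55.1 and 58.6 CPM and those labelled lncSIRP 13.7 and 13.3 CPM, against 47.8 and 36.3 CPM in vector, so LNCPRESS1 was not called higher with its own label (0.44 ± 0.21, adjusted p = 0.0843). At the late stage the libraries labelled lncPRESS1 held 153 and 151 CPM, against 32.9 and 32.6 CPM in vector. Pluripotency markers were still at 1847 and 1775 summed CPM in WT cells on day 5 of BMP4, against 3005 and 2929 on day 0. The 5 lateral mesoderm markers summed to 251.2 and 282.8 CPM in WT cells on day 5 of BMP4, against 0.5418 and 0.2985 CPM on day 0. Definitive endoderm markers reached 13850 and 13450 summed CPM on day 5 of Endo, and neuroectoderm markers 825.2 and 828.9 on day 5 of SMADi. The neuroectoderm sum also ran from 90.47 to 843.1 CPM over the 10 WT libraries of Endo, so it does not separate SMADi from Endo. In such bulk RNA, fewer cells of a type and less RNA per cell cannot be told apart.

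The 6 type IV genes lie in 3 head-to-head pairs, and the RNA of each pair was correlated over the 48 differentiation groups. The Pearson correlation of mean log2 CPM was 0.983 for COL4A1 and COL4A2, 0.933 for COL4A5 and COL4A6 and 0.906 for COL4A3 and COL4A4, given as a description over groups that share lines and protocols. COL4A3 reached 1 CPM in both libraries of only 12 of these groups, and its pair parted in SMADi. In WT cells COL4A3 averaged 0.0289 CPM on day 5 of SMADi, against 1.32 on day 0, while COL4A4 averaged 4.67, against 4.44. By the starts in the RefSeq table of GRCh38.p14, 126 bases separate COL4A1 from COL4A2 on chromosome 13, 379 bases separate COL4A6 from COL4A5 on chromosome X, and 418 bases separate COL4A4 from COL4A3 on chromosome 2. A further COL4A6 start in the same table lies 1415 bases from that of COL4A5. The annotated spans of COL4A1 and COL4A2 overlap in GENCODE 29, and whether the counting used the strand of the reads is not given in the sources used here. The stretches between or before the starts are shown because all 6 type IV genes rose in endoderm. The 126 bases between the COL4A1 and COL4A2 starts are given whole on the + strand (chr13:110307158-110307283), and for COL4A3 (chr2:227164374-227164623, + strand) and COL4A5 (chrX:108439588-108439837, + strand) the 250 bases before the start. Capitals mark CCAAT, the GC box GGGCGG and the TATA sequence TATAAA on either strand, and no marked matches overlap.
COL4A1 and COL4A2, between the starts: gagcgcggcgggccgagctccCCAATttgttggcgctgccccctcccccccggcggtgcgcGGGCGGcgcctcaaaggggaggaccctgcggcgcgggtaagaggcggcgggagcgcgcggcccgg
COL4A3, upstream of the start: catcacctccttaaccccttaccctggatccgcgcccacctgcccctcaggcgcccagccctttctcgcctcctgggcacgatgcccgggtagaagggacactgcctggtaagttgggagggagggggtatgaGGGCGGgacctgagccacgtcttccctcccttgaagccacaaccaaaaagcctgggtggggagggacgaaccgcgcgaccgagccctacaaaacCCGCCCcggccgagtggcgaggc
COL4A5, upstream of the start: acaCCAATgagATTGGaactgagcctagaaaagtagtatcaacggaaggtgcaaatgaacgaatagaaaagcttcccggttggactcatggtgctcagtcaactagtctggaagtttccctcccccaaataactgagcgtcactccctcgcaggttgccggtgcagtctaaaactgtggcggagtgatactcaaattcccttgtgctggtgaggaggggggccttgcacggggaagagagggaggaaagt
The COL4A1–COL4A2 stretch held 1 CCAAT and 1 GGGCGG, the COL4A3 stretch 2 GGGCGG, and the COL4A5 stretch 2 CCAAT and no GGGCGG. None of the 3 held TATAAA. Of 35116 promoters in the table, 21.1% held CCAAT and 34.6% GGGCGG in the 126 bases before the start, and 32% held CCAAT, 42.6% GGGCGG and 10.7% TATAAA in the 250 bases before it.

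Promoters of 3 chains of other classes are shown beside them, because later results turn on these chains. They are COL5A1 (chr9:134641553-134641802, + strand), COL6A2 (chr21:46097862-46098111, + strand) and COL11A1 (chr1:103108523-103108772, − strand), each with the 250 bases before its start and the same capitals. COL5A1 has 2 starts in the table, and only a single start is shown.
COL5A1, upstream of the start: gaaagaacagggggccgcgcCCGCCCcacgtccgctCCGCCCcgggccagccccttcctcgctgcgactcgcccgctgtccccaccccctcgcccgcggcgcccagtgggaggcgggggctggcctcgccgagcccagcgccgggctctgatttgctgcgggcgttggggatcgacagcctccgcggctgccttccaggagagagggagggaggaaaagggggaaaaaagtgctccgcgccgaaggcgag
COL6A2, upstream of the start: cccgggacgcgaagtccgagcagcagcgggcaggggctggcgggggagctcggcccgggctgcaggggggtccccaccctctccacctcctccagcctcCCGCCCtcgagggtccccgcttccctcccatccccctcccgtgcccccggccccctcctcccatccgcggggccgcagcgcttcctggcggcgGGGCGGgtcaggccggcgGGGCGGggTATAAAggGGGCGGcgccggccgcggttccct
COL11A1, upstream of the start: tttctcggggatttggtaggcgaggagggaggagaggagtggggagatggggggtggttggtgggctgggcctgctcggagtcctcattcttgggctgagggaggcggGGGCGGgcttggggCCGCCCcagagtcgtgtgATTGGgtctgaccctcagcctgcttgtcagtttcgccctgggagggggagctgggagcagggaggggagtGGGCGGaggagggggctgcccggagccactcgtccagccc
The COL6A2 stretch held 4 GGGCGG around 1 TATAAA, the COL5A1 stretch 2 GGGCGG, and the COL11A1 stretch 3 GGGCGG and 1 CCAAT. Of the 44 members, 32 were in the table with 44 promoters. Among these, 27.3% held CCAAT, 54.5% GGGCGG and 18.2% TATAAA in 250 bases.

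Unedited stem cells already made a broad set of collagens. Per kilobase of transcript, an approximate scale that allows genes to be compared, COL18A1 led on day 0 with 102.2 CPM per kb, followed by COL6A1 with 79.97, COL6A2 with 60.29, COL9A3 with 49.01 and COL1A1 with 44.76. COL18A1 is the endostatin-bearing chain of basement membranes and accounted for 18.8% of the summed level of all collagens per kilobase. COL3A1, the type III chain of vessels and skin, was close to undetected with 0.0339 and 0.0527 CPM, and the FACIT chain COL19A1 had no counts. The summed level was 566 and 522 CPM per kb on day 0. On day 5 it was 1085 and 1102 in BMP4, 553 and 560 in SMADi and 1648 and 1641 in Endo, so that the libraries of BMP4 and Endo lay above day 0 and those of SMADi overlapped it.

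**Figure D1:**
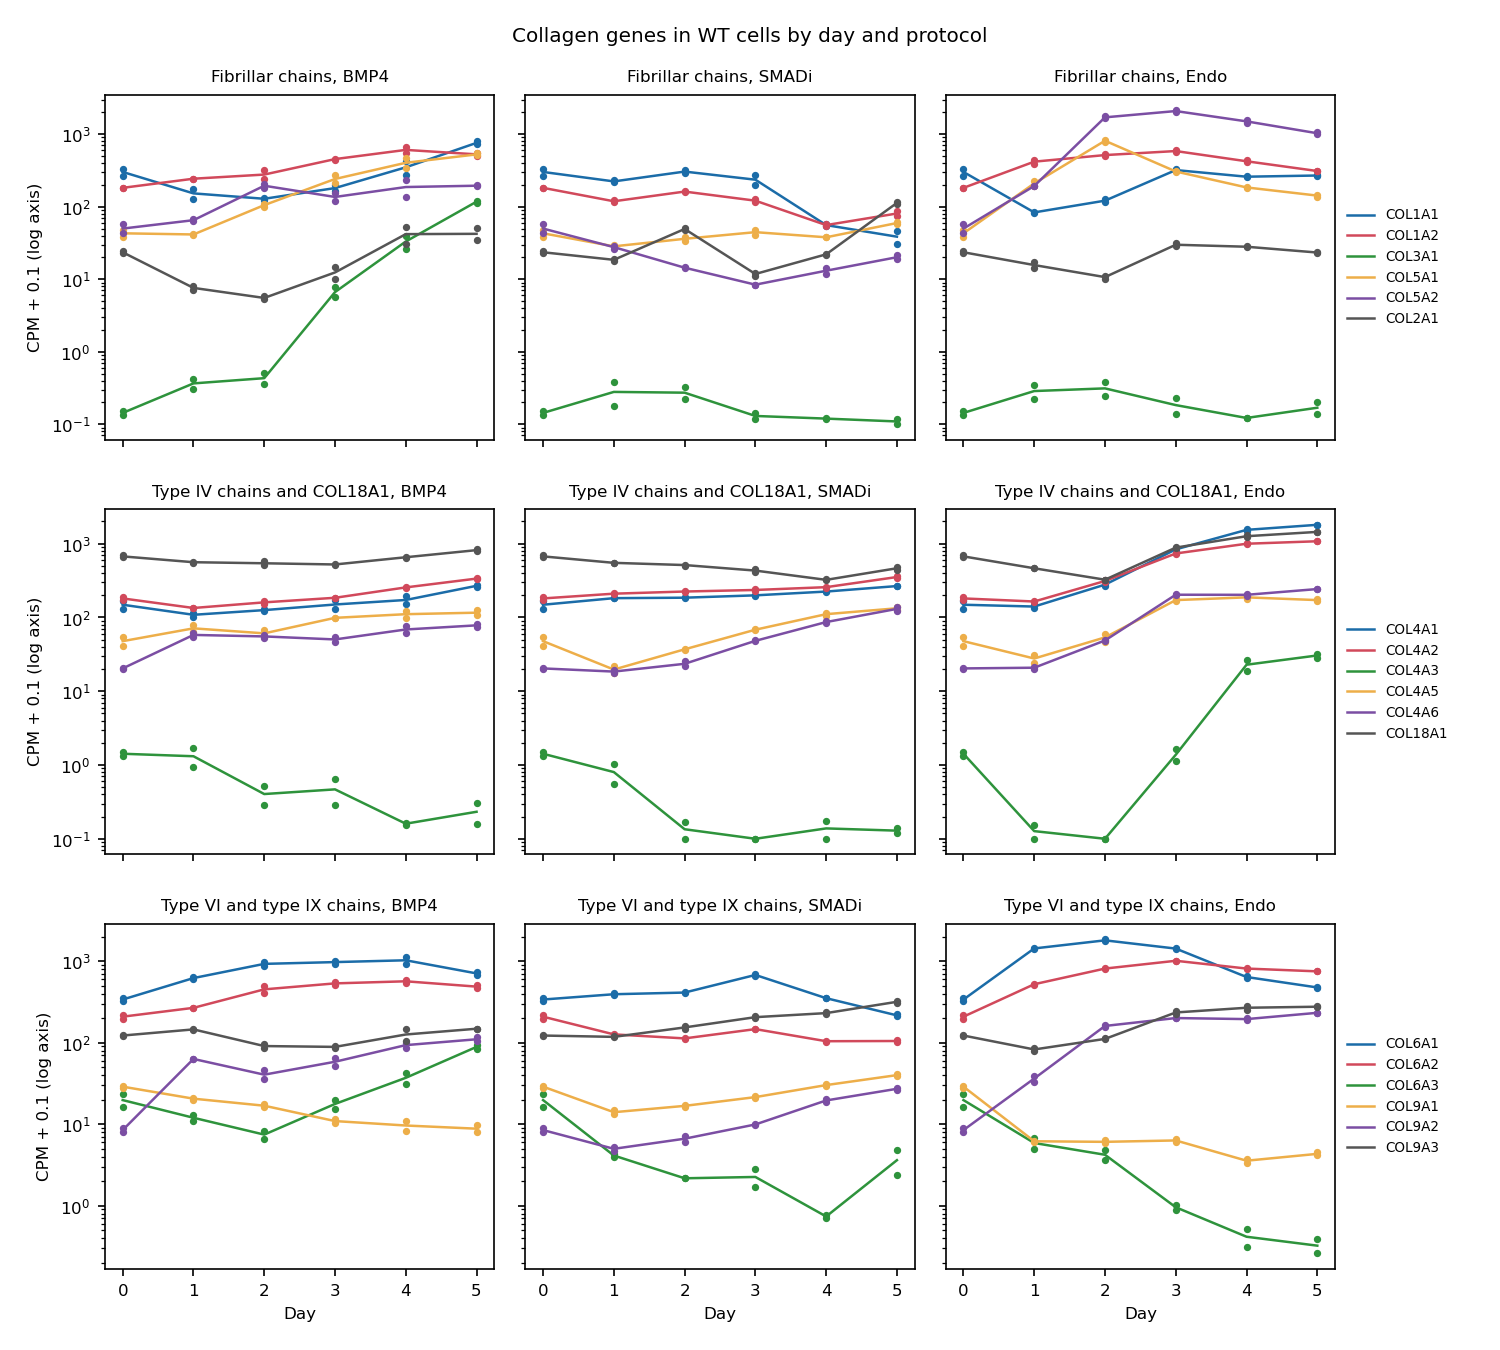
Levels of collagen genes in WT cells by day and protocol, in CPM plus 0.1 on a log axis. Points are the 2 libraries of a group and lines join their means. Fibrillar chains separate the protocols, with COL1A1 at 795 and 723 CPM on day 5 of BMP4 and 46.2 and 30.8 CPM on day 5 of SMADi, and type IV chains climb in Endo.

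In BMP4 mesoderm the fibrillar chains of connective tissue rose, and most type IV and type VI chains rose with them. On day 5 against day 0, 22 of 44 members were higher and 9 lower at an adjusted p under 0.05 (edgeR quasi-likelihood test), against 22.9% and 22.2% of all genes tested. The median log2 fold change of the members was 0.59. By class, 6 fibrillar chains were higher and 2 lower of 11, and 5 of 7 beaded filament chains were higher with none lower. With a block for the library letter the call of 1 of these 5, COL26A1 (0.20), was lost (adjusted p = 0.0851), as was that of COL22A1 (-0.56, adjusted p = 0.0862), and COL15A1 (0.74, adjusted p = 0.0405) was gained. COL3A1 had 7.59 and 5.50 CPM on day 3, 39.8 and 26.3 on day 4 and 114 and 120 on day 5, against the near-zero level of day 0. COL5A1, whose type V chain nucleates type I fibrils, had 510 and 542 CPM on day 5, against 47.9 and 37.8 on day 0 (log2 fold change 3.62 ± 0.14 SE, adjusted p = 1.92e-28). Its libraries on day 5 lay far above both stem cell libraries.

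The partner chain COL5A2 had 192 and 197 CPM on day 5 of BMP4, against 56.9 and 42.7 on day 0 (1.97 ± 0.17). The type I chains followed different courses. COL1A2 had 501 and 552 CPM on day 5, against 183 and 181 on day 0 (1.53 ± 0.09). COL1A1 first dipped, to 134 and 123 CPM on day 2, and had 795 and 723 CPM on day 5, against 333 and 269 on day 0 (1.33 ± 0.16, adjusted p = 6.06e-10). COL6A1 peaked at 1119 and 937 CPM on day 4 and had 734 and 685 on day 5, against 352 and 326 on day 0 (1.07 ± 0.09). COL6A3, the long chain of type VI filaments, had 84.0 and 93.5 CPM on day 5, against 16.2 and 23.1 on day 0 (2.18 ± 0.18). Type IX chains, which sit on type II fibrils in cartilage, parted: COL9A2 rose by 3.72 ± 0.16 (adjusted p = 1.96e-26) while COL9A1 fell by 1.72 on the log2 scale, with 9.58 and 7.82 CPM on day 5 against 27.9 and 29.7 on day 0. COL2A1 rose by 0.85 ± 0.15, and COL4A1, COL4A2, COL4A5 and COL4A6 had log2 fold changes of 0.85, 0.89, 1.28 and 1.94, all called. COL18A1 moved little, by 0.28 ± 0.06. COL11A1 had 0.45 ± 0.20 (adjusted p = 0.0649), and with a block for the library letter it was called at an adjusted p of 0.0134.

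In SMADi neuroectoderm COL1A1, COL1A2 and COL5A2 fell, while COL2A1, the type IX chains and 4 of 6 type IV chains rose. On day 5 against day 0, 15 of 44 members were higher and 21 lower, against 26.8% and 26.7% of all genes tested, and the members' median log2 fold change was -0.44. Of the 11 fibrillar chains 2 were higher and 8 lower, and of the 7 beaded filament chains 1 was higher and 5 lower. COL1A1 had 46.2 and 30.8 CPM on day 5, against 333 and 269 on day 0 (-2.97 ± 0.18, adjusted p = 2.54e-21). COL1A2 fell by 1.18, COL5A2 by 1.32 and COL6A3 by 2.49 on the log2 scale. COL2A1, the type II chain, rose to 110 and 115 CPM on day 5, against 22.7 and 24.2 on day 0 (2.27 ± 0.15, adjusted p = 1.85e-19), the opposite direction to type I. COL9A3 rose as well, with 311 and 324 CPM against 123 and 122 (1.38 ± 0.08, adjusted p = 1.27e-20), and alone made up 22.9% of the summed level per kilobase.

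COL6A1 passed through a peak of 657 and 701 CPM on day 3 of SMADi before it reached 223 and 210 on day 5, against 352 and 326 on day 0 (-0.65 ± 0.09). COL6A2 fell by 0.99 and COL18A1 by 0.53 on the log2 scale. The type IV chains COL4A1 (0.84 ± 0.11), COL4A2 (0.96), COL4A5 (1.48 ± 0.19) and COL4A6 (2.69 ± 0.09) rose, and COL4A3 was down to 3 counts in all on day 5, against 1.22 and 1.42 CPM on day 0. COL5A1 rose by 0.47 ± 0.13, and this call ended when library b of day 0 was left out. COL11A1 fell by 1.11 on the log2 scale.

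In Endo, all 6 type IV chains rose, and the basement membrane share of the summed level per kilobase reached 31.0%, against 11.3% on day 0. On day 5 against day 0, 22 of 44 members were higher and 14 lower, against 31.2% and 32.2% of all genes tested, with a median log2 fold change of 0.53. COL4A1 had 1798 and 1808 CPM on day 5, against 169 and 128 on day 0 (3.60 ± 0.13, adjusted p = 4.6e-32). COL4A2 had 1073 and 1085 CPM, against 188 and 174 (2.58 ± 0.06, adjusted p = 2.39e-40). The ratio of COL4A1 to COL4A2 per kilobase was 1.64 in both Endo libraries, against 0.881 and 0.725 on day 0, so the chains did not rise by the same factor. COL4A3, a chain of the kidney filter's basement membrane, had 32.3 and 28.5 CPM, against 1.22 and 1.42 (4.53 ± 0.27), and COL4A4 rose by 3.37 ± 0.19, COL4A5 by 1.85 ± 0.19 and COL4A6 by 3.58 ± 0.09. COL18A1 had 1443 and 1448 CPM, against 696 and 650 (1.10 ± 0.06), after a trough of 325 CPM in both libraries on day 2.

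Fibrillar and filament chains took transient courses in Endo. COL5A1 reached 780 and 843 CPM on day 2 and had 147 and 138 on day 5, against 47.9 and 37.8 on day 0 (1.73 ± 0.14). COL5A2 reached 2140 and 2026 CPM on day 3 and stayed high, at 1069 and 990 on day 5, against 56.9 and 42.7 on day 0 (4.37 ± 0.19, adjusted p = 1.3e-27). COL6A1 reached 1862 and 1751 CPM on day 2 and had 475 and 478 on day 5. The transmembrane chain COL13A1, known from the neuromuscular junction, reached 196 and 188 CPM on day 2 and was back at 9.90 and 11.1 on day 5. Other chains were nearly lost by day 5. COL6A3 had 0.160 and 0.285 CPM on day 5 of Endo, against 16.2 and 23.1 on day 0, and COL14A1, a FACIT chain of type I fibrils, had 0.918 and 0.931 CPM, against 63.0 and 60.0. COL11A1 fell by 3.25 on the log2 scale. COL8A1, a chain of hexagonal networks, rose to 63.1 and 56.4 CPM, against 0.576 and 0.404. COL9A2 rose by 4.80 ± 0.17, COL9A3 by 1.18 ± 0.08, COL6A2 by 1.85 ± 0.06 and COL1A2 by 0.77 ± 0.09. COL1A1 had 275 and 263 CPM on day 5, against 333 and 269 on day 0 (-0.16 ± 0.16, adjusted p = 0.382), and COL2A1 had -0.01, also not called.

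The difference between protocols was tested directly on day 5. BMP4 against Endo called 25 members higher and 16 lower, against 29.6% and 28.7% of all genes tested. BMP4 against SMADi called 21 higher and 9 lower, against 27.2% and 26.7%, and SMADi against Endo 17 higher and 19 lower, against 30.9% and 28.6%. COL1A1 was higher in BMP4 than in SMADi by 4.30 ± 0.18 and than in Endo by 1.5 ± 0.16. COL5A1 was higher in BMP4 than in Endo by 1.89 ± 0.13, whereas COL5A2 was lower by 2.40 (log2 fold change -2.40 ± 0.17). The ratio of COL5A1 to COL5A2 per kilobase was accordingly 2.22 and 2.30 on day 5 of BMP4 and 0.115 and 0.116 on day 5 of Endo. COL4A1 had a log2 fold change of -2.75 ± 0.12 in BMP4 against Endo and of 0.01 ± 0.11 in BMP4 against SMADi (adjusted p = 0.955). COL2A1 was higher in SMADi than in Endo by 2.28 ± 0.15.

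The genes that make and handle collagen were counted in the same comparisons. Of 20 genes of synthesis and folding, 15 were higher and 1 lower in BMP4, 4 higher and 10 lower in SMADi, and 12 higher and 4 lower in Endo. The lysyl hydroxylase PLOD1 (1.36) led in BMP4, in SMADi PLOD2 (-2.55) and the prolyl 3-hydroxylase P3H2 (-3.38) fell deepest, and in Endo P3H2 (2.79) and P4HB (1.41) led, all as log2 fold changes. Of 11 fibril partners 10 were higher and 1 lower in BMP4, against 2 higher and 5 lower in SMADi and 4 higher and 4 lower in Endo. FN1, the fibronectin gene, rose by 3.61 in BMP4 and 4.57 in Endo and fell by 2.81 in SMADi on the log2 scale. Of 12 basement membrane partners 8 were higher and 2 lower in BMP4, 4 higher and 4 lower in SMADi, and 5 higher and 5 lower in Endo. Of all genes, 22.9% were higher and 22.2% lower in the BMP4 comparison, 26.8% and 26.7% in that of SMADi and 31.2% and 32.2% in that of Endo. Within the Endo course the laminin chain LAMB1 (3.34) and perlecan, HSPG2 (2.89), rose while nidogen NID2 fell by 6.53 on the log2 scale. LOX, which starts cross-links between chains, rose by 1.47 in BMP4 and fell by 2.76 in SMADi on the log2 scale, and the gelatinase MMP2 rose by 3.05 in BMP4.

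Among stem cells of the 3 lines few collagen differences were called. In simulated data for KO against WT, 48% of log2 changes of 0.5 were recovered on day 0, against 100% over days 1 to 5 of BMP4. A small count on day 0 therefore cannot show that the stem cells were alike. On day 0, KO against WT called 1 member, against 4.89% of all genes tested, and ΔATG against WT called 3, against 5.5%. COL26A1, a chain of the beaded filament and related class, had 78.6 and 70.2 CPM in KO and 85.3 and 76.6 CPM in ΔATG, against 103 and 87.3 CPM in WT (log2 fold change -0.36 ± 0.07, adjusted p = 0.00109 in KO and -0.24 ± 0.07, adjusted p = 0.0373 in ΔATG). The fibrillar chain COL27A1 was lower in ΔATG (-0.45 ± 0.11, adjusted p = 0.00847) and COL6A3 higher (0.64 ± 0.19, adjusted p = 0.0269). With a block for the library letter 3 members were called in KO and 5 in ΔATG. COL4A3 (adjusted p = 0.0159 with the block) and COL20A1 (0.0173) joined in KO, and COL4A2 (0.0273) and COL6A1 (0.0389) in ΔATG. Fitted on the day 0 libraries of the compared lines alone, neither comparison called a member with edgeR (1 member in KO and 3 in ΔATG had an unadjusted p under 0.05). KO and ΔATG share the WT libraries here and in all comparisons below.

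**Figure D2:**
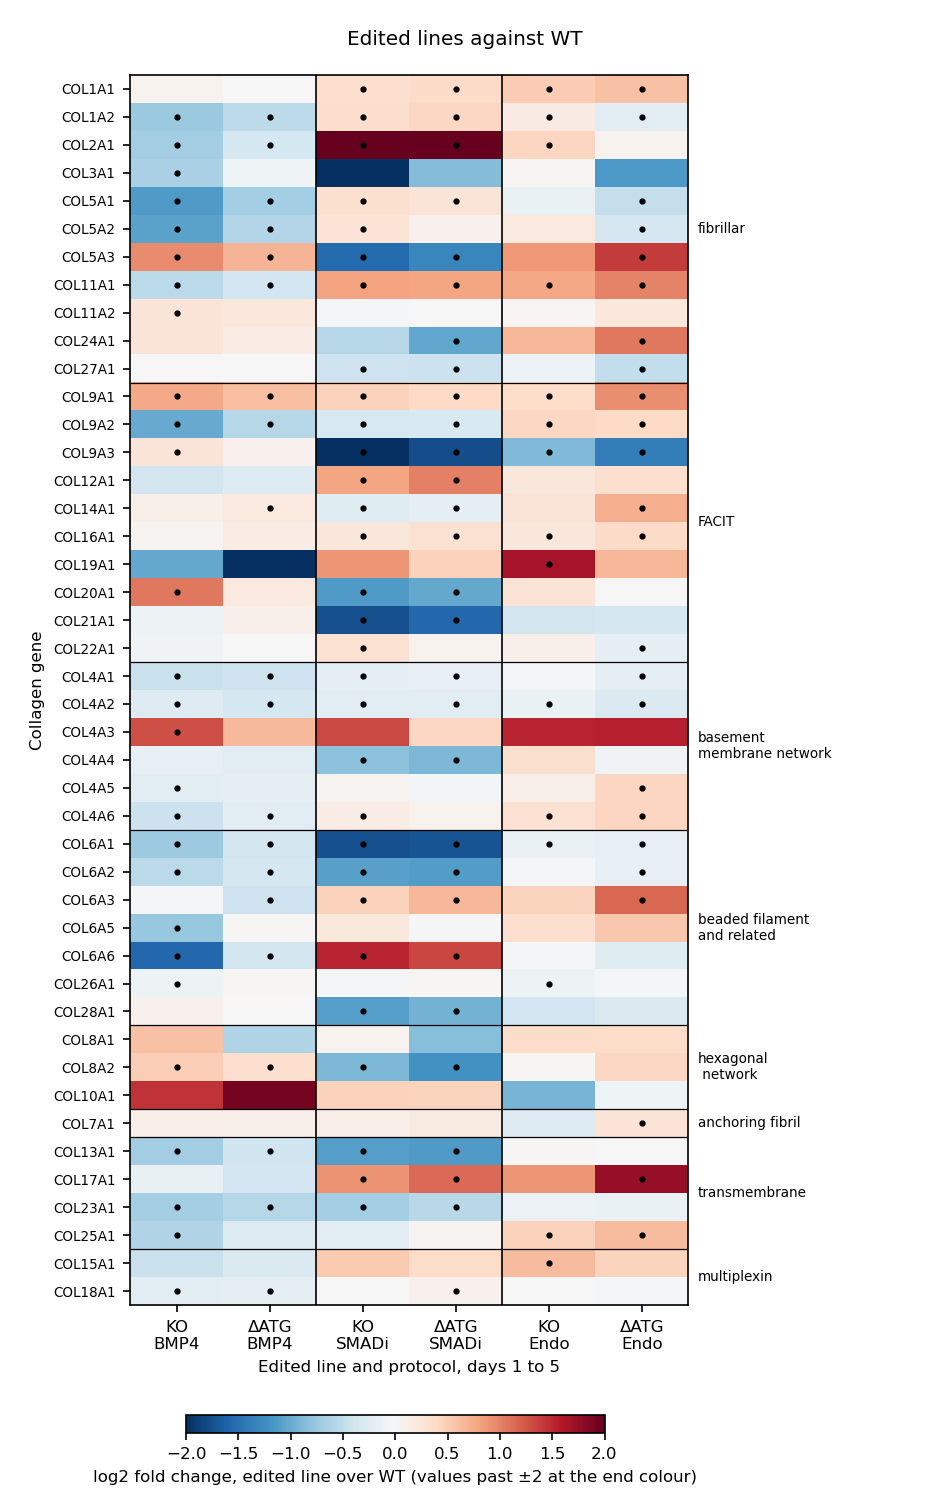
Log2 fold change of each of the 44 collagen genes in KO and ΔATG against WT, averaged over days 1 to 5 of BMP4, SMADi and Endo. Colour runs from lower to higher than WT and is capped at a log2 fold change of 2, and dots mark genes at an adjusted p under 0.05. COL2A1 is higher and COL9A3 and COL6A1 lower in both edited lines in SMADi.

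During BMP4 differentiation both edited lines held less RNA of COL5A1, COL5A2, COL1A2, COL6A1, COL6A2, COL4A1 and COL4A2 than WT. Over days 1 to 5, 7 of 44 members were higher and 20 lower in KO, against 13.3% and 15.4% of all genes tested, and 4 were higher and 16 lower in ΔATG, against 8.19% and 8.78%. The median log2 fold change of the members was -0.19 in KO and -0.20 in ΔATG. The beaded filament class had 5 of 7 chains lower in KO and 4 in ΔATG with none higher, and the type IV class had 4 of 6 lower and 1 higher in KO and 3 lower and none higher in ΔATG.

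COL5A1 had 125 and 159 CPM in KO and 282 and 215 CPM in ΔATG on day 5, against 510 and 542 CPM in WT. The groups did not overlap, and ΔATG lay between KO and WT. Over the 5 days COL5A1 had a log2 fold change of -1.13 ± 0.06 in KO (adjusted p = 1.31e-22) and of -0.68 ± 0.06 in ΔATG (adjusted p = 1.06e-13). The separation opened after day 1, when KO had 40.9 and 35.3 CPM, ΔATG 39.5 and 36.4 CPM and WT 42.3 and 40.3 CPM. On day 2 KO had 53.0 and 58.8 CPM and ΔATG 77.2 and 58.7 CPM, against 100 and 110 CPM in WT. By day 5 its log2 fold change was -1.89 in KO (adjusted p = 4.39e-17) and -1.08 in ΔATG (adjusted p = 5.55e-09).

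COL5A2 had 47.8 and 72.8 CPM in KO and 144 and 102 CPM in ΔATG on day 5, against 192 and 197 CPM in WT (-1.08 ± 0.08, adjusted p = 1.54e-17 in KO and -0.59 ± 0.08, adjusted p = 1.32e-08 in ΔATG over the 5 days). COL1A2 had 193 and 221 CPM in KO and 328 and 304 CPM in ΔATG on day 5, against 501 and 552 CPM in WT, with log2 fold changes over the days of -0.75 ± 0.04 for KO and -0.53 ± 0.04 for ΔATG. The other type I chain did not follow it. COL1A1 averaged a log2 fold change of 0.06 in KO and -0.01 in ΔATG over days 1 to 5, neither called. In KO its difference depended on the day (adjusted p = 0.000375), being 0.52 on day 2 and 0.54 on day 3, both called. On day 5 COL1A1 had 555 and 424 CPM in KO and 600 and 493 CPM in ΔATG, against 795 and 723 CPM in WT (-0.63, adjusted p = 0.00195 in KO and -0.47, adjusted p = 0.0417 in ΔATG). In ΔATG the dependence of COL1A1 on day had an adjusted p of 0.162, and of 0.000147 with a block for the library letter.

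COL6A1 had 300 and 337 CPM in KO and 507 and 429 CPM in ΔATG on day 5, against 734 and 685 CPM in WT. Its log2 fold change over the 5 days was -0.72 ± 0.04 in KO (adjusted p = 1.44e-22) and -0.36 ± 0.04 in ΔATG (adjusted p = 4.11e-11), and COL6A2 had -0.54 ± 0.03 and -0.35 ± 0.03 in the same lines. COL6A3 had -0.03 in KO, not called, and -0.42 ± 0.09 in ΔATG, so the type VI chains did not move as a unit. COL6A6, an alternative to COL6A3 in type VI filaments, fell in KO by 1.57 on the log2 scale. COL3A1 had 73.3 and 72.0 CPM in KO and 89.5 and 86.7 CPM in ΔATG on day 5, against 114 and 120 CPM in WT. Over the 5 days it was lower in KO (-0.66 ± 0.16, adjusted p = 0.00108) and had -0.09 in ΔATG (adjusted p = 0.809).

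Among basement membrane chains COL4A1 had 134 and 156 CPM in KO and 162 and 154 CPM in ΔATG on day 5, against 275 and 262 CPM in WT (-0.44 ± 0.05, adjusted p = 4.45e-10 in KO and -0.42 ± 0.05, adjusted p = 5.76e-09 in ΔATG). COL4A2 had -0.25 ± 0.03 in KO and -0.35 ± 0.03 in ΔATG, COL4A6 -0.43 and -0.23, and COL18A1 -0.23 ± 0.02 and -0.20 ± 0.02, all called. COL4A5 had -0.22 in KO, a call that ended in 12 of the 20 fits that left out 1 library, and -0.19 in ΔATG, called with the letter block alone (adjusted p = 0.00457). Of the cartilage-type chains COL2A1 (-0.69 ± 0.08 in KO, -0.36 ± 0.08 in ΔATG), COL11A1 (-0.54 ± 0.09 and -0.38 ± 0.09) and COL9A2 (-1.01 ± 0.06 and -0.57 ± 0.06) were lower in both lines.

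A few chains were higher in the edited lines. COL9A1 had 21.2 and 19.1 CPM in KO and 15.3 and 19.2 CPM in ΔATG on day 5 of BMP4, against 9.58 and 7.82 CPM in WT (0.75 ± 0.05, adjusted p = 9.91e-19 in KO and 0.60 ± 0.05, adjusted p = 2.84e-14 in ΔATG). COL5A3, a type V chain that WT cells lowered in BMP4, had 8.23 and 7.62 CPM in KO and 7.21 and 7.56 CPM in ΔATG, against 3.83 and 3.64 CPM in WT (0.95 ± 0.06 and 0.68 ± 0.07). COL8A2 was higher by 0.49 and 0.34. Both COL9A1 and COL5A3 fell in WT cells during BMP4, and on day 5 the edited lines lay nearer than WT to the day 0 level of each.

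**Figure D3:**
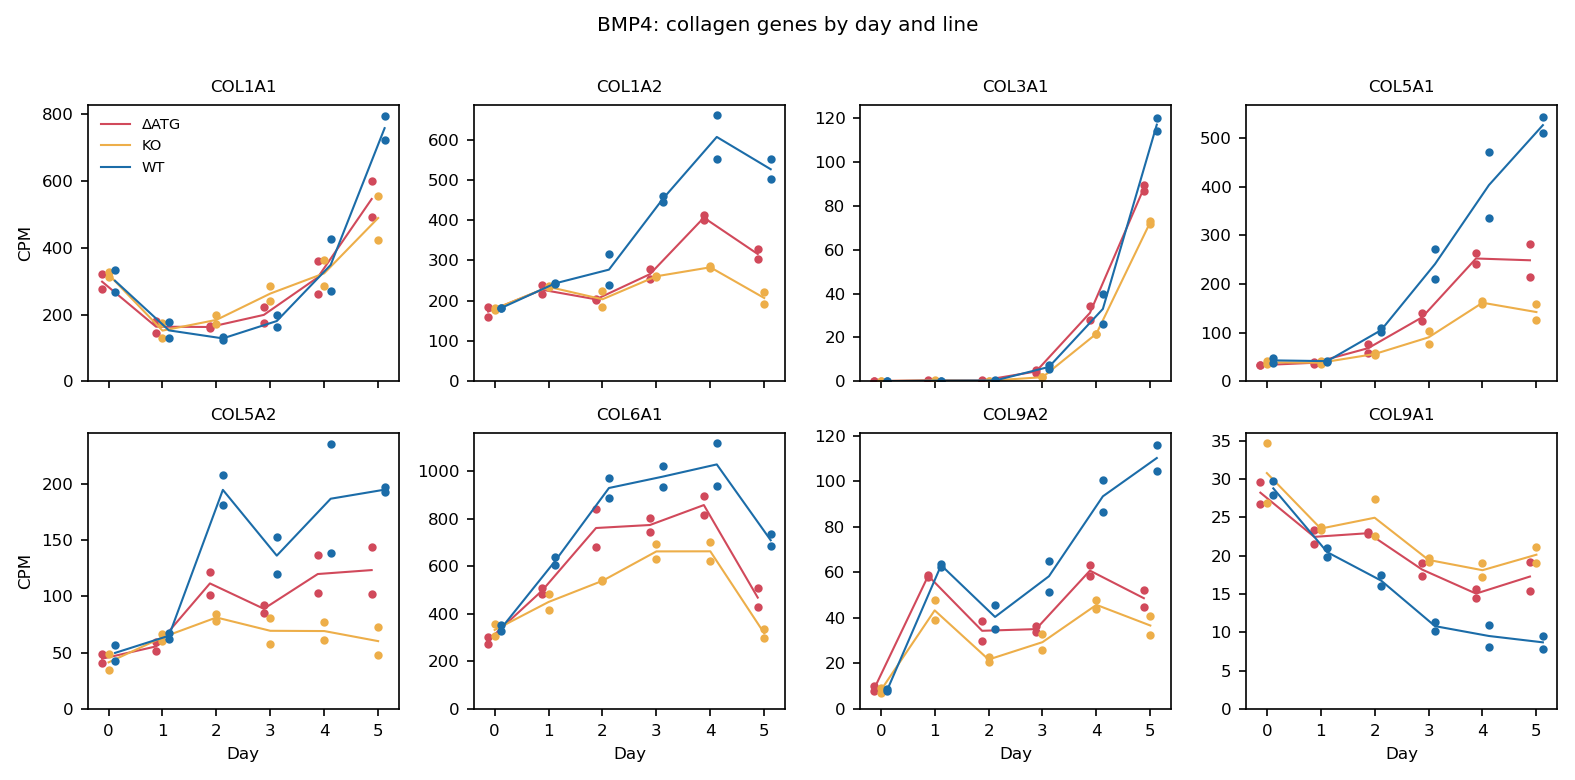
Levels of 8 collagen genes by day of BMP4 in ΔATG, KO and WT cells, in CPM, with day 0 of each line. Points are the 2 libraries and lines join their means. COL5A1 on day 5 is at 125 and 159 CPM in KO and 282 and 215 CPM in ΔATG, below the 510 and 542 CPM of WT, while COL9A1 is above WT in both edited lines.

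The 2 edited lines were compared directly. ΔATG against KO called 13 members higher and 6 lower in BMP4, against 8.67% and 4.92% of all genes tested. COL5A1 was higher in ΔATG by 0.45 ± 0.06 (adjusted p = 3.74e-08), COL5A2 by 0.49 ± 0.08 (adjusted p = 2.2e-06), COL6A1 by 0.36 ± 0.04 (adjusted p = 9.96e-11) and COL9A2 by 0.43 ± 0.06 (adjusted p = 9.94e-07). The joint test of the days called 22 members in KO, against 10.4% of all genes, and 9 in ΔATG, against 2.27%. When only the libraries compared were fitted, the same test called 7 in KO and none in ΔATG, where 12 members had an unadjusted p under 0.05 with edgeR.

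Collagen-handling genes were lower too. Of all genes tested, 13.3% were higher and 15.4% lower in KO and 8.19% and 8.78% in ΔATG. Of 20 genes of synthesis and folding, 15 were lower in KO and 11 in ΔATG with none higher. PLOD2, which hydroxylates the lysines that later form cross-links, had -0.74 in KO and -0.44 in ΔATG. LOX, which starts the cross-links, had -0.76 and -0.72, and MMP2, a gelatinase, -0.97 and -0.66. Of 11 fibril partners 7 were lower and 1 higher in KO and 6 lower and 1 higher in ΔATG, led by FBN2 (-1.5 and -0.89) and FMOD (-1.45 and -1.37). Of 12 basement membrane partners 7 were lower in each line and 2 higher in KO, among them LAMA4 (-0.96 and -0.51). Of the 10 degradation genes tested, 8 were lower in KO and 7 in ΔATG, with 1 higher in each. Of 10 receptors 4 were lower in KO, with ITGA11, an integrin chain that binds fibrillar collagen, at -1.08, and none in ΔATG, and 1 was higher in each.

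Markers of the cell types that a mesoderm culture can hold differed as well, in both directions. The 5 lateral mesoderm markers summed to between 2.425 and 90.53 CPM over the 10 KO libraries and between 4.844 and 166.5 CPM over those of ΔATG, against 4.925 to 295.3 CPM in WT. All 5 were lower in KO and 2 of 5 in ΔATG, and TBX20 was under 0.5 CPM in every KO library. The 7 fibroblast and mesenchyme markers summed to 150.5 to 254.8 CPM in KO and 154 to 323.1 CPM in ΔATG, against 192.7 to 435.2 CPM in WT, with 4 of 7 lower in each edited line and DCN at or below 0.831 CPM. WT stem cells on day 0 already had 264.3 to 273.3 CPM, with TWIST1, PRRX1, LUM and DCN under 0.5 CPM. This sum therefore does not mark mesenchyme alone. The amnion and trophoblast markers had median sums of 31.74 CPM in KO and 68.29 in ΔATG, against 80.91 in WT. Those of endothelium had 176.6 and 230.8 CPM, against 266.7. All 4 primitive streak markers were lower in both lines. Of the 5 pluripotency markers 4 were higher in KO and 3 in ΔATG. The 5 neuroectoderm markers summed to 16.77 to 315 CPM in KO and 20.64 to 212.5 CPM in ΔATG, against 18.13 to 77.06 CPM in WT, with 1 of 5 higher in each edited line. Of the 4 neural crest markers 3 were higher and 1 lower in each. Their part in the collagen differences was not tested.

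In SMADi, the edited lines differed from WT in the make-up of their collagens. COL2A1 RNA was higher, and COL9A3, COL6A1 and COL6A2 RNA lower, in both lines. Over days 1 to 5, 14 of 44 members were higher and 16 lower in KO, against 21% and 24.6% of all genes tested, and 12 were higher and 17 lower in ΔATG, against 20.9% and 24.3%. The median of the members was 0.02 in each. The fibrillar share of the summed level per kilobase on day 5 was 36.2% in KO and 34.7% in ΔATG, against 12.1% in WT, and the FACIT share was 9.2% and 9.8%, against 28.5%. The summed level was 339 and 344 CPM per kb in KO and 345 and 374 in ΔATG, against 553 and 560 in WT. ΔATG against KO called 2 members, against 1.07% of all genes tested.

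COL2A1 had 453 and 477 CPM in KO and 444 and 492 CPM in ΔATG on day 5, against 110 and 115 CPM in WT. On day 4 it had 295 and 294 CPM in KO and 261 and 244 CPM in ΔATG, against 21.7 and 22.2 CPM in WT. Neither pair of edited libraries overlapped WT on any of the 5 days. The log2 fold change over the days was 2.07 ± 0.07 in KO (adjusted p = 3.42e-33) and 2.02 ± 0.07 in ΔATG (adjusted p = 1.24e-32). COL2A1 made up 26.9% of the summed collagen level per kilobase in KO on day 5. COL11A1, its partner in cartilage fibrils, was higher by 0.81 ± 0.10 and 0.79 ± 0.10 in the same lines. Of the cartilage and notochord markers 1 of 4 was higher and 1 lower in each line. These shares are near those of all genes tested, with 21% higher and 24.6% lower in KO and 20.9% and 24.3% in ΔATG. The higher marker was SOX9, an activator of COL2A1 in cartilage. SOX9 had 87.9 and 93.3 CPM in KO and 78.6 and 88.4 CPM in ΔATG, against 41.6 and 40.9 CPM in WT on day 5. Its part in the COL2A1 difference was not tested.

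COL9A3 went the other way. It had 24 and 21.3 CPM in KO and 30.6 and 33.5 CPM in ΔATG on day 5, against 311 and 324 CPM in WT. WT climbed on each day from 120 and 116 CPM on day 1, whereas KO stayed between 21.3 and 76.3 CPM and ΔATG between 30.6 and 78.2 CPM throughout. The log2 fold change over the days was -2.0 ± 0.04 in KO (adjusted p = 2.52e-43) and -1.78 ± 0.04 in ΔATG (adjusted p = 5.37e-41). Its partner chain COL9A1 was higher by 0.46 and 0.40. COL6A1 had 128 and 120 CPM in KO and 137 and 115 CPM in ΔATG on day 3, against 657 and 701 CPM in WT, and no peak on day 3 was seen in the edited lines. It had -1.75 ± 0.04 in KO (adjusted p = 1.09e-40) and -1.72 ± 0.04 in ΔATG (adjusted p = 3.07e-40), and COL6A2 had -1.09 ± 0.03 and -1.12 ± 0.03. COL21A1, a FACIT chain, fell by 1.75 and 1.56, COL5A3 by 1.56 and 1.30 and the transmembrane COL13A1 by 1.09 and 1.14 on the log2 scale. The other type VI chains went the other way, COL6A6 higher by 1.53 and 1.34 and COL6A3 by 0.46 and 0.66, while COL6A5 was not called. Averaged over the 5 days, the basement membrane chains COL4A1 (-0.18 and -0.16) and COL4A2 (-0.22 and -0.23) moved little, all called. On day 5 they lay further below WT. COL4A1 then averaged 175 CPM in KO and 183 in ΔATG, against 266 in WT, and COL4A2 222 and 227, against 353.

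**Figure D4:**
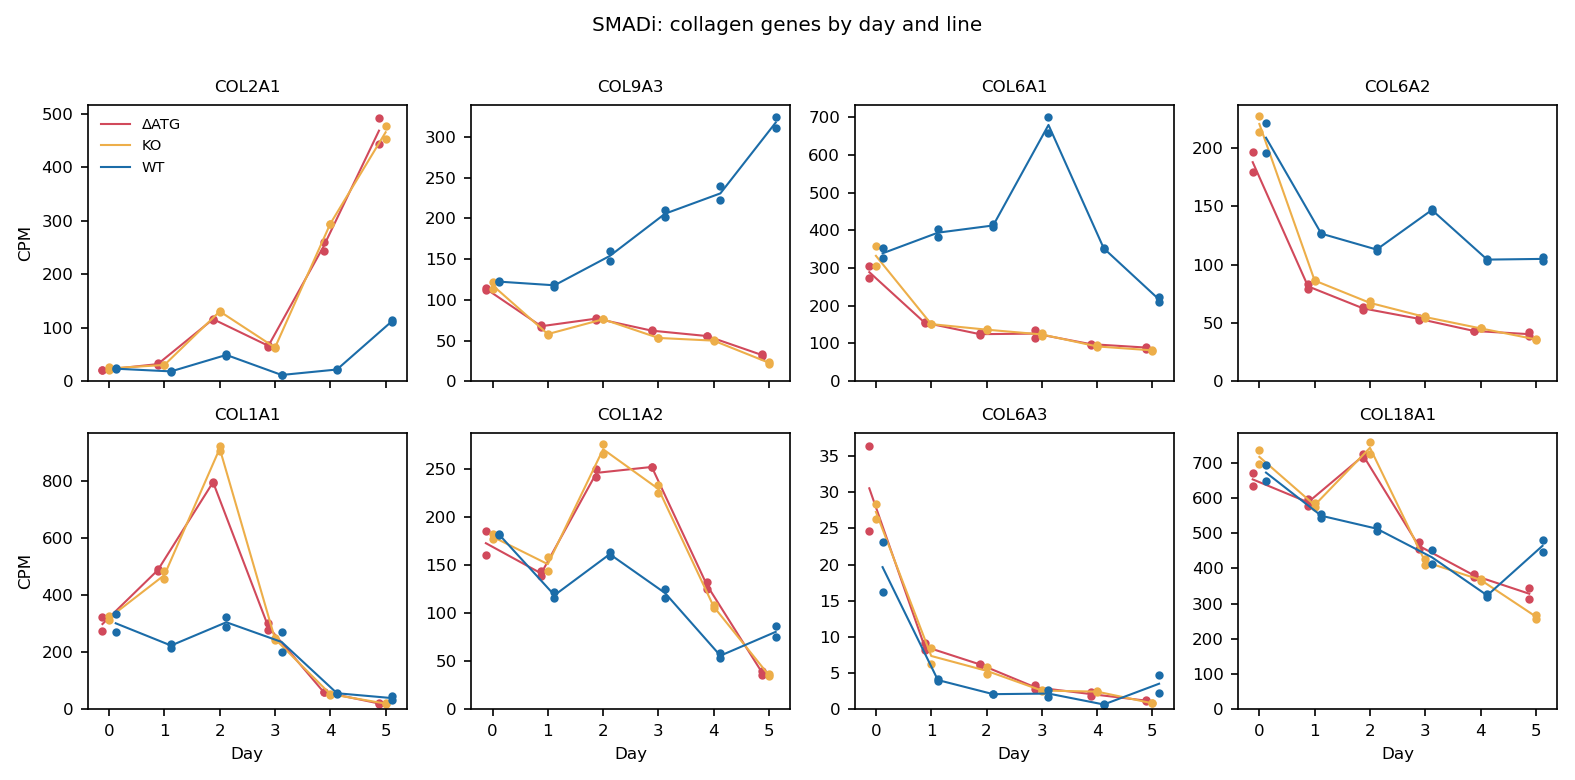
Levels of 8 collagen genes by day of SMADi in ΔATG, KO and WT cells, in CPM, with day 0 of each line. Points are the 2 libraries and lines join their means. COL2A1 is above and COL9A3 below WT from day 1 on, and COL1A1 crosses from above WT on day 2 to below it on day 5.

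Several chains changed direction with the day. COL1A1 had 904 and 925 CPM in KO and 798 and 795 CPM in ΔATG on day 2, against 322 and 288 CPM in WT (log2 fold change 1.59 and 1.39). On day 5 it had 18.1 and 20.4 CPM in KO and 20.2 and 19.3 CPM in ΔATG, against 46.2 and 30.8 CPM in WT (-1.0 and -0.96). COL1A2 was higher on day 4, by 0.94 in KO and 1.21 in ΔATG, and lower on day 5, with 36.2 and 34.0 CPM in KO and 35.2 and 39.8 CPM in ΔATG against 86.2 and 74.8 CPM in WT. COL18A1 was higher on day 2 (0.53 and 0.49) and lower on day 5 (-0.82 and -0.50), which left its mean over the days at -0.01 in KO, not called. COL6A3 had 1.92 and 1.70 on day 4 and -2.12 and -1.59 on day 5, and COL4A6 had 0.78 and 0.56 on day 3 and -0.67 and -0.73 on day 5. The joint test of the days called 28 members in KO, against 32.7% of all genes, and 27 in ΔATG, against 29.5%. A mean over the 5 days therefore understates these chains.

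The neuroectoderm markers summed to 25.85 to 1129 CPM in KO and 25.53 to 1026 CPM in ΔATG, against 9.873 to 828.9 CPM in WT, with 3 of 5 higher and 1 lower in each edited line. PAX6 had 365 and 389 CPM in KO and 305 and 335 CPM in ΔATG on day 5, against 139 and 161 CPM in WT. SIX3, a forebrain marker, had 1.59 and 1.89 CPM in KO and 2.74 and 3.17 CPM in ΔATG, against 375 and 358 CPM in WT. The 5 pluripotency markers summed to 847.1 to 2081 CPM in KO and 911.7 to 2101 CPM in ΔATG, against 1101 to 2633 CPM in WT, with 4 of 5 lower in both. Their part in the collagen differences was not tested. Among the 20 genes of synthesis and folding, 6 were higher and 7 lower in KO and 5 higher and 7 lower in ΔATG. Of all genes tested, 21% were higher and 24.6% lower in KO and 20.9% and 24.3% in ΔATG. The prolyl 4-hydroxylase chain P4HA2 had -1.21 and -1.17, and COLGALT2, which adds galactose to hydroxylysine, had 1.47 and 1.38. Fibrillin FBN1 rose by 1.42 and 1.37, and THBS2, a matricellular thrombospondin, fell by 2.16 and 2.06 on the log2 scale.

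In Endo more genes were called in ΔATG than in KO, among all genes tested as well as among collagens, type IV chains included. Over days 1 to 5, 11 of 44 members were higher and 4 lower in KO, against 6.76% and 8.04% of all genes tested, and 14 were higher and 10 lower in ΔATG, against 16.6% and 17.2%. The share of members that were lower in KO was near that of all genes. COL4A1 had -0.02 in KO, not called, and -0.18 in ΔATG, called, and COL4A2 had -0.13 and -0.29, both called. COL4A6 was higher by 0.30 and 0.43, and COL4A5 had 0.12 in KO, not called, and 0.42 in ΔATG. COL4A3 had 32.6 and 27.1 CPM in KO and 9.97 and 11.1 CPM in ΔATG on day 4, against 26.8 and 18.8 CPM in WT (ΔATG -1.11, adjusted p = 4.64e-05). COL4A4 had 50.2 and 47.2 CPM in KO and 31.1 and 26.2 CPM in ΔATG on day 5, against 48.7 and 43.5 CPM in WT.

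COL9A3 was again lower, with 131 and 125 CPM in KO and 85.3 and 81.8 CPM in ΔATG on day 5, against 275 and 279 CPM in WT. Its log2 fold change over the days was -0.88 ± 0.04 in KO (adjusted p = 1.88e-26) and -1.39 ± 0.04 in ΔATG (adjusted p = 1.48e-35). ΔATG was below KO by 0.51 (log2 fold change -0.51 ± 0.04, adjusted p = 8.25e-16). COL9A2 went the other way on the later days. It had 520 and 572 CPM in KO and 767 and 810 CPM in ΔATG on day 5, against 231 and 234 CPM in WT (1.23, adjusted p = 1.66e-09 in KO and 1.76, adjusted p = 5.31e-15 in ΔATG). On day 1 the ΔATG line had been below WT by a log2 fold change of -0.57. COL11A1 had 17.4 and 18.1 CPM in KO and 27.9 and 24.8 CPM in ΔATG on day 5, against 6.75 and 7.84 CPM in WT (0.77 ± 0.10 and 1.00 ± 0.10 over the days).

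COL1A1 had 226 and 211 CPM in KO and 269 and 265 CPM in ΔATG on day 2 of Endo, against 115 and 127 CPM in WT, and was higher over the days by 0.52 ± 0.07 (adjusted p = 1.48e-07) and 0.58 ± 0.07 (adjusted p = 1.86e-09). COL1A2 had 0.17 in KO and -0.23 in ΔATG, called in opposite directions. COL5A1 at its WT peak on day 2 had 662 and 701 CPM in KO and 434 and 398 CPM in ΔATG, against 780 and 843 CPM in WT. Over the days COL5A1 fell by 0.48 in ΔATG and had -0.13 in KO, not called, and COL5A2 fell by 0.34 in ΔATG and had 0.20 in KO, not called. COL6A1 on day 1 had 970 and 1024 CPM in KO and 790 and 804 CPM in ΔATG, against 1448 and 1425 CPM in WT. COL8A1 had 47.0 and 43.6 CPM in KO and 27.7 and 25.1 CPM in ΔATG on day 5, against 63.1 and 56.4 CPM in WT (ΔATG -1.18, adjusted p = 1.29e-08). ΔATG against KO called 7 members higher and 11 lower, against 8.71% and 9.65% of all genes tested. The joint test of the days called 9 members in KO, against 2.95% of all genes, and 23 in ΔATG, against 16.2%. The definitive endoderm markers summed to 13260 and 13340 CPM in KO and 9237 and 8479 CPM in ΔATG on day 5, against 13850 and 13450 CPM in WT, and the part of this difference in the collagen values was not tested.

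Whether the lines' difference from WT depended on the protocol was tested on the difference between the protocols' contrasts. BMP4 minus SMADi called 30 members in KO, against 42% of all genes, and 29 in ΔATG, against 35.7%. BMP4 minus Endo called 23 in KO, against 20.2%, and 21 in ΔATG, against 22.8%. SMADi minus Endo called 23 in each line, against 30.2% and 37.5%. For COL2A1 the BMP4 contrast minus the SMADi contrast was -2.76 in KO and -2.38 in ΔATG.

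In the overexpression arm the middle libraries labelled lncPRESS1 and lncSIRP stand apart from all others. As given above, the middle libraries labelled lncPRESS1 were not called higher than vector in LNCPRESS1 RNA. The middle libraries with the 2 labels held 362.5 and 370.4 and 422.4 and 409.9 summed CPM of the 5 pluripotency markers, against 3720 and 3801 CPM in vector, with all 5 lower. The 5 lateral mesoderm markers summed to 743.7 and 721.6 CPM with lncPRESS1 and 594.6 and 614.4 CPM with lncSIRP, against 0.1832 and 0.1259 CPM in vector, with all 5 higher. Of the 6 markers of parietal or extra-embryonic endoderm all were higher with both labels, and of the 7 fibroblast and mesenchyme markers 6 were higher and 1 lower. Sums of most other lists were also above vector. Median sums with lncPRESS1 and lncSIRP were 1046 and 755.1 CPM for endothelium, against 246.5 CPM in vector. They were 100.6 and 74.9 for amnion and trophoblast, against 6.531, and 229.6 and 265.3 for definitive endoderm, against 51.04. For cartilage and notochord they were 137.7 and 150.9, against 31.73. The neural crest sum lay closer to vector, with 89.99 and 81.84 against 74.69. The part of these cell types in the collagen values was not tested. The 3 constructs share the vector libraries.

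In those middle libraries most fibrillar, type IV and type VI chains were higher than in vector. The summed level was 3836 and 3728 CPM per kb with lncPRESS1 and 3972 and 4170 with lncSIRP, against 564 and 562 in vector. With lncPRESS1 27 of 44 members were higher and 10 lower, against 29.3% and 28.9% of all genes tested, and with lncSIRP 28 were higher and 11 lower, against 30.6% and 29.8%. The members' median log2 fold change was 1.56 and 1.81. COL3A1 had 2707 and 2690 CPM with lncPRESS1 and 3354 and 3524 CPM with lncSIRP, against 0.0366 and 0 CPM in vector. COL1A1 had 2026 and 1903 CPM and 2636 and 2704 CPM, against 80.3 and 86.0 CPM (4.56 ± 0.19 and 5.00 ± 0.19). COL5A1 had 1540 and 1471 CPM and 1627 and 1678 CPM, against 37.1 and 40.4 CPM (5.28 ± 0.12 and 5.41 ± 0.12). COL6A3 had 1682 and 1574 CPM and 1254 and 1472 CPM, against 10.4 and 7.85 CPM (7.49 ± 0.33 and 7.23 ± 0.33).

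**Figure D5:**
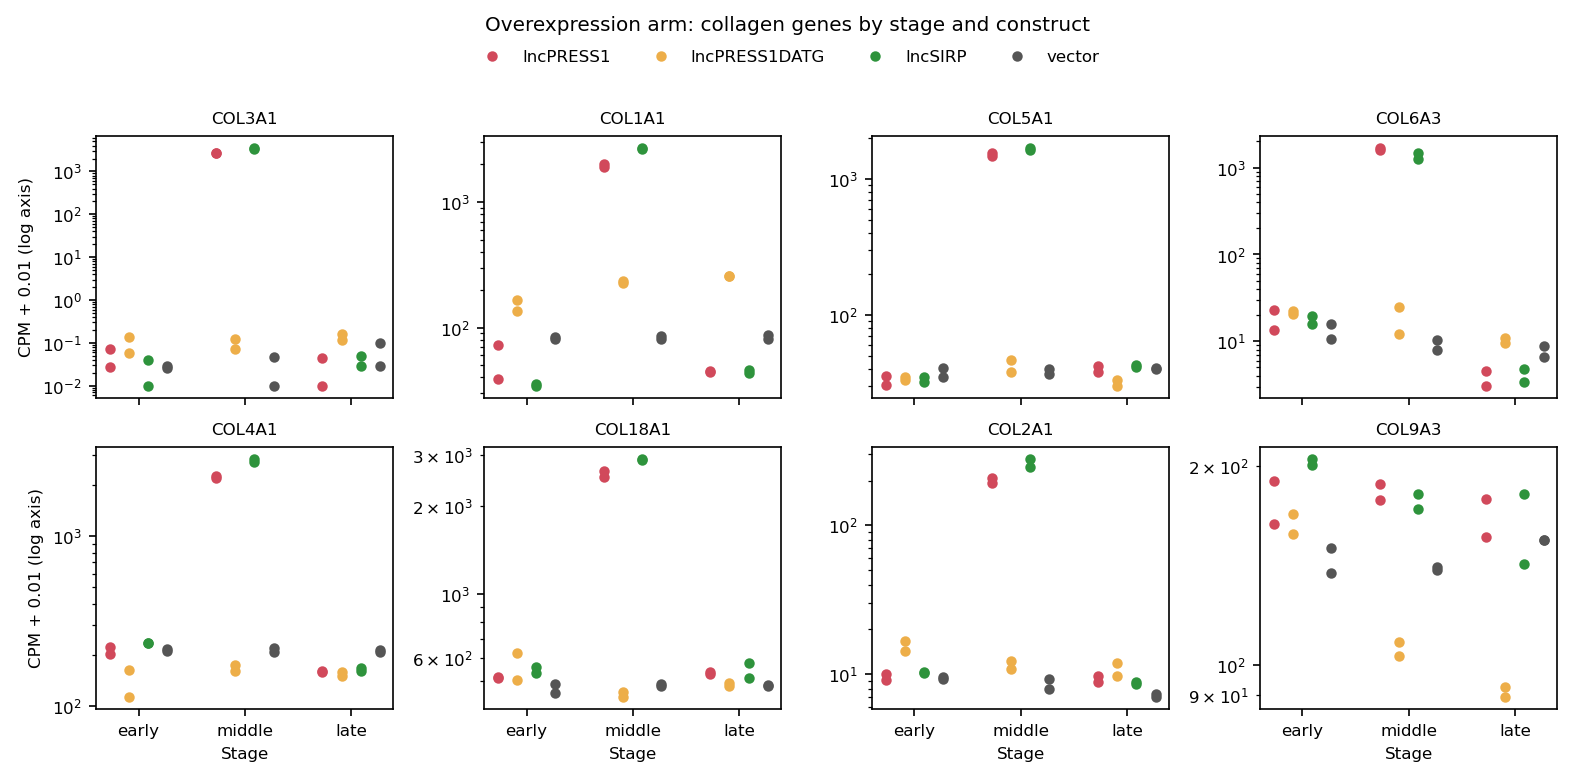
Levels of 8 collagen genes at the early, middle and late stage in libraries labelled lncPRESS1, lncPRESS1DATG, lncSIRP and vector, in CPM plus 0.01 on a log axis. Points are single libraries. The middle lncPRESS1 and lncSIRP libraries lie above all others for COL3A1, with 2707 and 2690 and 3354 and 3524 CPM. For COL3A1 the means of all other groups are at or below 0.132 CPM.

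COL4A1 had 2254 and 2216 CPM with lncPRESS1 and 2735 and 2836 CPM with lncSIRP at the middle stage, against 208 and 219 CPM in vector (3.39 ± 0.12 and 3.71 ± 0.12). COL4A2 rose by 2.93 ± 0.08 and 3.15 ± 0.08, COL4A5 by 2.18 ± 0.17 and 1.97 ± 0.17, and COL18A1 by 2.41 ± 0.09 and 2.58 ± 0.09. COL4A4, of the kidney-type chains in the same class, fell by 2.63 and 2.34 on the log2 scale. COL2A1 had 207 and 192 CPM and 247 and 277 CPM, against 9.32 and 8.01 CPM. Genes that make collagen rose in 15 of 20 with lncPRESS1 and 17 of 20 with lncSIRP with none lower, and 10 of 12 basement membrane partners were higher with none lower. Of all genes tested, 29.3% were higher with lncPRESS1 and 30.6% with lncSIRP. lncSIRP against lncPRESS1 at this stage called 9 members, against 2.19% of all genes tested. Among them COL3A1 was higher with lncSIRP by 0.35 ± 0.09 (adjusted p = 0.0334), COL12A1 by 1.71 ± 0.24 and COL16A1 by 0.95 ± 0.14, and COL13A1 was lower by 1.23 (log2 fold change -1.23 ± 0.15).

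At the late stage the same labels gave small and partly opposite differences. COL1A1 had 44.2 and 45.1 CPM with lncPRESS1 and 43.4 and 46.0 CPM with lncSIRP, against 87.0 and 81.7 CPM in vector (-0.92, adjusted p = 0.00204 and -0.92, adjusted p = 0.00227). COL6A1 had 1050 and 940 CPM and 1046 and 1115 CPM, against 627 and 637 CPM (0.65 and 0.77). COL4A1 had -0.40 and -0.37, COL11A1 -0.97 and -1.08 and COL5A2 -0.68 and -0.60, all called. In all, 5 members were higher and 10 lower with lncPRESS1, against 11% and 11.6% of all genes, and 3 higher and 9 lower with lncSIRP, against 10.7% in each direction. At the early stage the libraries labelled lncPRESS1 had no member called with edgeR, against 0.412% of all genes (8 at an unadjusted p under 0.05, and 2 called with DESeq2), and those labelled lncSIRP 2 higher and 4 lower, against 5.12% and 5.65%, with COL1A1 at 34.3 and 35.2 CPM against 83.5 and 81.6 CPM in vector. The difference between the middle stage and the mean of the others was called for 33 members with lncPRESS1, against 45.6% of all genes, and for 34 with lncSIRP, against 47.4%. Averaged over the 3 stages, 35 members were called with lncPRESS1, against 45.8% of all genes, and 34 with lncSIRP, against 50.1%, and without the middle stage 11 and 16 were.

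lncPRESS1DATG was set against vector over the stages. Over the 3 stages 11 members were higher and 11 lower, against 11.3% and 14.5% of all genes tested, with a median of 0.04, and the difference between the middle stage and the others was called for no member with edgeR, against 0.266% of all genes (8 at an unadjusted p under 0.05, and 2 called with DESeq2). COL1A1 had 164 and 137 CPM early, 235 and 226 CPM middle and 257 and 258 CPM late, against 83.5 and 81.6, 80.3 and 86.0, and 87.0 and 81.7 CPM in vector at the same stages (1.32 ± 0.10, adjusted p = 2.84e-08). All 6 libraries were above all 6 of vector. COL9A1 was higher by 1.16 ± 0.08 (adjusted p = 1.7e-08). COL6A1 had 347 and 334 CPM at the late stage, against 627 and 637 CPM in vector (-0.75 ± 0.05 over the stages, adjusted p = 5.72e-09), and COL6A2 fell by 0.61, COL5A2 by 0.60, COL4A1 by 0.48, COL9A3 by 0.33 and COL4A2 by 0.30 on the log2 scale. COL2A1 rose by 0.58, the anchoring fibril chain COL7A1 by 0.86 and the FACIT chain COL12A1 by 1.93 ± 0.33.

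Across the 48 differentiation groups, the genes most like a collagen in log2 CPM were found for 3 chains. For COL4A1 they were COL4A2 (Pearson r 0.983), ENTPD6 (0.966), TMEM14B (0.965) and PCBD1 (0.964). For COL1A1 they were PPL (0.823), C1S (0.812) and CREB3L1 (0.809), and for COL2A1 MSRB3 (0.836), EIF4ENIF1 (0.829) and ILDR2 (0.825). COL6A1 and COL6A2, which lie near each other on chromosome 21, had r = 0.921. Chains of the same trimer on different chromosomes followed each other less closely, with 0.608 for COL1A1 and COL1A2 and 0.255 for COL9A2 and COL9A3. COL3A1 and COL5A2 are neighbours on chromosome 2 and had r = 0.0703. These values describe groups that share lines, protocols and sequencing and carry no test.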

How the data were processed

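Illumina stranded mRNA libraries of H1 cells were sequenced by the authors, and the deposited values are expected counts (estimated counts per gene, named as length scaled) for 62703 genes in 120 libraries. Per the submitters' processing notes the build is GRCh38, with aligner, quantifier and annotation not given in the sources used here. Expected counts were rounded, filtered with filterByExpr (25821 and 23300 genes), scaled by TMM (factors 0.8575 to 1.114 and 0.8748 to 1.137) and fitted with edgeR 4.0.16 in R 4.3.3, separately by arm, with a mean per group and no covariates. The residual degrees of freedom were 48 and 12. Differences were tested by a two-sided quasi-likelihood F test, Benjamini-Hochberg adjusted over all genes of a comparison. Genes with an adjusted p under 0.05 count as called. SE values come from F, as the absolute log2 fold change over its square root. Contrasts of single days (1 to 5) or of the 3 stages were averaged for the summary comparisons. Where a group was at or under 3 counts, no fold is given. Transcript lengths for values per kilobase and gene positions came from GENCODE 29, and promoters from the RefSeq table. The steps were checked on simulated data. Figures were drawn with matplotlib 3.10.9.

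Groups follow the labels. Library letters deviated together at day 0 and in BMP4, where all 18 pairs of groups had correlations of the b minus a difference from 0.179 to 0.743. The labels name no shared batch, so this pairing comes from the values. The members, classes, pathway and marker lists were chosen with earlier results of these data known. The rule for naming took the 15 chains of the trimers most used in early embryos and, in each comparison, up to 5 highest rises and 5 deepest falls among called members whose log2 CPM averaged 1 or more, and 2 genes per direction of a pathway list. Not all of these are given for every comparison, and a chain left out is not thereby unchanged. Other members and pathway genes were named after their values were seen. Alternatives were DESeq2 1.42.0, its size factors, no filter, a block for the letter, only the libraries compared, and leaving out each library. The fit without the middle stage was added after seeing the data.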

Additional observations from a re-analysis of the deposited data

Results flagged for a closer look

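Collagen genes are listed here whose difference between an edited line and WT changed direction between protocols or days, or whose difference between a construct and vector changed direction between stages, each by a test of that change (edgeR, adjusted over all genes). All values are log2 differences unless a p is named, and KO and ΔATG share the WT libraries.

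The contrast to WT in BMP4 minus that in Endo was -1.31 in KO and -1.38 in ΔATG for COL11A1, -1.43 and -0.97 for COL9A2 and -0.73 and -0.65 for COL4A6. All 3 chains were lower than WT in BMP4 and higher in Endo. BMP4 minus SMADi was -2.76 in KO and -2.38 in ΔATG for COL2A1, -1.46 and -0.93 for COL5A1, -1.35 and -1.18 for COL11A1 and -1.10 and -0.93 for COL1A2, which were lower than WT in BMP4 and higher in SMADi. The same difference was 2.51 and 1.98 for COL5A3 and 1.40 and 1.55 for COL8A2, which were higher than WT in BMP4 and lower in SMADi. SMADi minus Endo was -0.74 and -0.69 for COL9A2.

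Within SMADi, 9 chains were above WT on some days and below it on others. The joint test of the days gave adjusted p-values of 8.51e-22 in KO and 3.46e-22 in ΔATG for COL1A2, 6.67e-20 and 2.56e-14 for COL18A1, 2.88e-16 and 3.21e-15 for COL14A1, 7.3e-14 and 1.12e-12 for COL4A6 and 3.76e-13 and 1.61e-11 for COL1A1. They were 1.45e-08 and 2.48e-07 for COL6A3, 2.58e-08 and 1.9e-06 for COL9A2, 3.97e-05 and 1.13e-08 for COL26A1 and 2.03e-06 and 1.02e-05 for COL17A1.

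In the overexpression arm the middle stage minus the mean of the early and late stages was 5.30 with lncPRESS1 and 6.09 with lncSIRP for COL1A1, 4.27 and 5.00 for COL11A1, 4.17 and 4.38 for COL5A2, 3.60 and 3.83 for COL4A1 and 2.31 and 2.82 for COL1A2. Each was above vector in the middle libraries and below it in the mean of the others.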

How the results depend on the processing

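Of 607 called values of single members, 600 kept direction and call with DESeq2 size factors, 584 without a filter on low counts and 544 when only the libraries compared were fitted. With DESeq2 480 of 489 did, and across the fits that left out 1 library 7605 of 7988 did. None of these alternatives turned a direction. With a block for the library letter 600 of 607 did, and the block moved the count of members called on day 0 to 3 in KO and 5 in ΔATG, against 1 and 3 without it. In SMADi (0 of 15 pairs of groups above 0.1), Endo (1 of 15) and overexpression (4 of 18) the libraries share only a letter.

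The day 0 count in KO was 2 with DESeq2 size factors, 0 with only the libraries compared and 0 to 4 with 1 library left out. In ΔATG it was 0 with only the libraries compared and 0 to 6 with 1 library left out. ΔATG against KO in SMADi called 1 member without a filter and 1 to 2 with 1 library left out, against 2. Dependence on the day in BMP4 called 7 in KO and 0 in ΔATG with only the libraries compared, against 22 and 9. In ΔATG it called 5 to 13 with 1 library left out, the 5 without WT day 1 library b. Dependence on the day in Endo called 6 to 9 in KO, against 9, with the 6 in the fits without KO day 1 library b, day 2 library a or day 3 library b, or without WT day 2 library b, day 3 library a or day 5 library a. The other counts moved by less than 1.5 times in all fits that left out 1 library. Causes were not tested.

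Without the middle stage the members called were 11 with lncPRESS1, against 35 over 3 stages, 16 with lncSIRP, against 34, and 22 with lncPRESS1DATG, as before. Directions that turned with lncPRESS1 were those of COL1A1 (-0.74), COL6A6 (-0.64), COL5A2 (-0.51), COL11A1 (-0.43), COL1A2 (-0.30), COL3A1 (-0.27), COL6A3 (-0.26), COL4A1 (-0.21) and COL5A1 (-0.10). With lncSIRP they were COL1A1 (-1.08), COL11A1 (-0.86), COL5A2 (-0.51), COL3A1 (-0.48), COL6A6 (-0.47), COL1A2 (-0.38), COL6A3 (-0.24), COL12A1 (-0.15), COL4A1 (-0.12), COL16A1 (-0.10), COL5A1 (-0.0593) and COL4A6 (-0.0038). These turns follow from the middle libraries alone being far above vector.

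With 2 libraries per group, single-day tests rest on a spread pooled over all groups of an arm, and chains near 0 CPM carry few counts.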
